A study of Macaca mulatta with 4 samples.

Results

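The nuclear-encoded genes of the mitochondrial respiratory chain and ATP synthase were examined in single blood cells of rhesus macaques. They were chosen by symbol alone, with no use of measured values: NDUFA, NDUFB, NDUFC, NDUFS and NDUFV genes, SDHA to SDHD, UQCR genes, CYC1, nuclear COX subunit genes and ATP5 genes. The choice gave 69 of the 15354 gene rows in the tables. UQCRFS1, UQCR10 and UQCR11 had no row under these symbols, so complex III is incomplete here. Counts and sums by complex cover only the rows found. Of these, 29 belong to complex I, 4 to complex II, 6 to complex III, 14 to complex IV and 16 to complex V. NDUFA4 carries a complex I name but is now placed in complex IV, and was counted there. COX7A2L, counted with complex IV by its symbol, encodes a factor that joins complexes III and IV, and ATP5IF1 encodes an inhibitor and not a subunit.

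The respiratory chain sits in the inner mitochondrial membrane. Complexes I and II pass electrons from NADH and succinate to ubiquinone, complex III passes them on to cytochrome c, and complex IV passes them to oxygen. Complexes I, III and IV pump protons, and complex V, the ATP synthase, uses the proton gradient to make ATP. Most subunits are encoded in the nucleus, made in the cytosol and imported, while a small core set is encoded by mitochondrial DNA. Lymphocytes at rest depend largely on respiration, and dividing lymphocytes raise both respiration and glycolysis.

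The cells were peripheral blood mononuclear cells (lymphocytes, monocytes and dendritic cells) from a study that gave macaques islets made from human pluripotent stem cells. There were 4 libraries, 1 per group. Pre-IS was drawn with no immunosuppression given yet, and Post-IS with immunosuppression given but no graft. The 4 wpt and 8 wpt libraries were drawn 4 and 8 weeks after transplantation. The labels give neither the drugs nor whether the libraries came from the same animal, and no treatment is listed for the libraries after transplantation. With 1 library per group, animal, draw, library preparation and treatment cannot be told apart. Values below are in the order Pre-IS, Post-IS, 4 wpt and 8 wpt unless the libraries are named.

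The tables held 1928, 603, 1882 and 2580 cells, and 3356133, 791030, 6910432 and 5482144 unique molecular identifiers (UMIs, each 1 captured RNA molecule). Cell classes follow the authors' deposited labels, and B and naive B cells were joined as the B lineage. The classes with at least 50 cells in every library were 841, 115, 889 and 1174 T cells, 256, 329, 312 and 346 CD14+ monocytes, and 75, 131, 207 and 65 MS4A7+ monocytes. NK cells (257, 9, 270 and 659) and the B lineage (461, 13, 128 and 277) had fewer than 50 cells in Post-IS and were not compared there. Markers went with the labels of T cells and both monocyte classes, and those of NK cells and the B lineage are not given here. The summed level of 8 T cell markers was 4226 to 4577 CPM (UMIs per 1000000 UMIs of the class) in T cells and at most 68.1 CPM in CD14+ monocytes. The 5 measured nonclassical monocyte markers summed to 2223 to 2739 CPM in MS4A7+ monocytes and at most 367.8 CPM in CD14+ monocytes. The 12 cells labelled platelets, all in the 4 wpt library, went against their label, with 276.3 CPM of platelet markers beside 5158 CPM of monocyte markers, and were not used. Between 0 and 12 barcodes were shared by a pair of libraries.

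In a first view, all 69 genes were summed in each class and expressed as a percent of the UMIs of that class. The sum is a share of captured RNA and says nothing of RNA per cell. In T cells it was 1.82%, 1.82%, 1.79% and 1.91%. In CD14+ monocytes it was 2.16%, 2.23%, 2.08% and 2.17%, above the T cells in each of the 4 libraries. MS4A7+ monocytes had 1.84%, 1.69%, 1.57% and 2.06%, below CD14+ monocytes in each library and with the widest range of the classes with at least 50 cells in every library. NK cells had 1.85%, 1.85% and 1.96% in Pre-IS, 4 wpt and 8 wpt, and the B lineage had 1.71%, 1.66% and 1.73%. Proliferating NK/T cells, which are few (8, 2, 41 and 30), had the highest share in each library, at 2.51%, 2.99%, 2.53% and 2.68%.

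**Figure D1:**
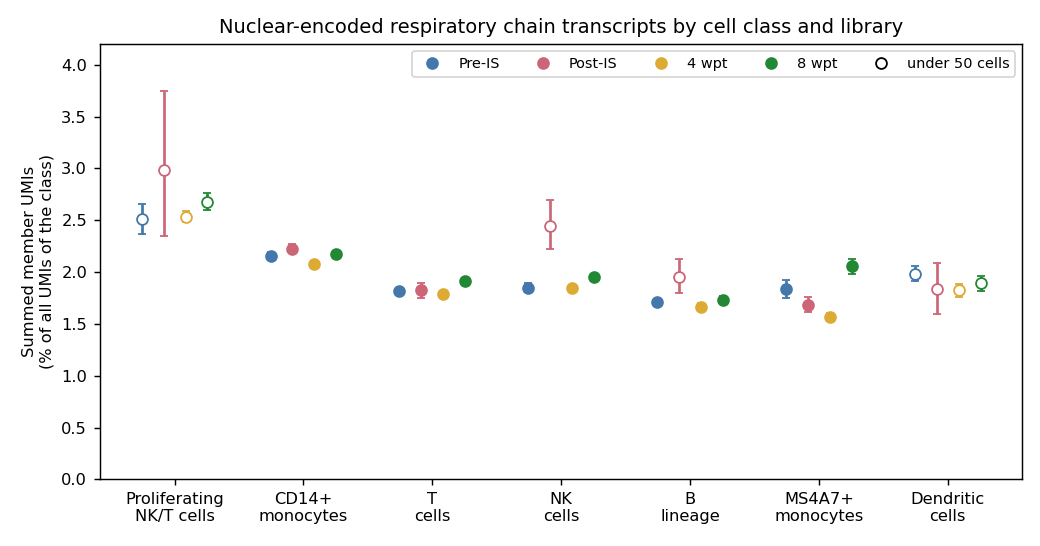
Summed UMIs of the 69 genes as a percent of all UMIs of the class (y axis) for 7 cell classes (x axis) in the 4 libraries (colours); bars are exact Poisson 95% intervals for counting error, and open points hold fewer than 50 cells. CD14+ monocytes sit between 2.08% and 2.23%, T cells between 1.79% and 1.91%, and proliferating NK/T cells at 2.51% or above.

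The 5 highest genes took 28.2% to 37.1% of the members' UMIs in the classes with at least 50 cells, and the other members the rest. ATP5F1E, the epsilon subunit of the ATP synthase central stalk, was the highest gene with 34283 UMIs over all cells, or 2073 CPM. It took 11.7% to 14.3% of the members' UMIs in T cells and 8.87% to 10.4% in MS4A7+ monocytes. UMIs count molecules from 1 end of the transcript, so levels can be set side by side without a length term, although capture can differ between genes. The next highest over all cells were COX4I1, the regulatory subunit 4 of complex IV, at 1282 CPM, COX7C, a small complex IV subunit, at 1118 CPM, and ATP5MC2, a gene for the rotor subunit c, at 895 CPM. The highest in complex I were NDUFB1, a small membrane arm subunit, at 477 CPM and NDUFA2, an accessory subunit of the matrix arm, at 386 CPM. In complex III they were UQCRH, the hinge protein beside cytochrome c1, at 472 CPM and UQCRQ at 316 CPM. Complex II was the lowest as a whole: its 4 genes summed to 0.0188% to 0.0248% of T cell UMIs, against 0.365% to 0.431% for the complex I genes.

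Differences between cell classes could be tested, because each library holds all classes. UMIs were summed per class and library (18 sums with at least 50 cells) and fitted with edgeR's quasi-likelihood test, with library and class as terms and Benjamini-Hochberg adjustment over 8380 genes. Of the 69 genes, 66 passed the filter on low counts, and COX6A2, COX6B2 and COX7A2L did not. The labels were made by the authors from these same cells, and separate animals are not named, so the p-values may be too small. In these contrasts the shares of all genes are those of this fit. None are given for other settings, so counts under those settings cannot be set beside them.

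CD14+ monocytes carried more respiratory chain transcripts than T cells across all 5 complexes. Of the 66 genes tested, 41 were higher (30% of all genes), 2 were lower (27.8% of all genes) and 23 did not pass the test. The median log2 fold change was 0.45, against -0.01 over all genes tested. On plain class totals these medians were 0.29 and -0.18, with 34 members higher and 4 lower. By complex, 17 of 29 genes of complex I were higher, 3 of 4 of complex II, 5 of 6 of complex III, 7 of 11 of complex IV and 9 of 16 of complex V.

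Complex I held 4 of the 5 largest differences. NDUFA2 was at 642, 762, 578 and 664 CPM in CD14+ monocytes and at 290.4, 278, 262 and 314 CPM in T cells. All 4 monocyte values lay above all 4 T cell values, and the log2 fold change was 1.33 (edgeR, adjusted p = 1.31e-13). NDUFV3, an accessory subunit next to the NADH-binding site, was at 157, 145, 133 and 141 CPM in the monocytes and at 69.6, 76.5, 57.1 and 64.9 CPM in T cells. Its groups did not overlap either, with a log2 fold change of 1.32 (edgeR, adjusted p = 8.36e-13). NDUFB7, a membrane arm subunit that faces the intermembrane space, was at 288, 287.5, 219.5 and 263 CPM in the monocytes against 147, 76.5, 112 and 157 CPM in T cells, a log2 fold change of 1.15 (edgeR, adjusted p = 2.42e-11). NDUFB1 had a log2 fold change of 1.04 (edgeR, adjusted p = 2.58e-10).

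The largest difference was in COX7A1, which encodes the form of complex IV subunit 7A known from heart and skeletal muscle. Its level was low, at 83.9, 84.7, 85.9 and 84.7 CPM in CD14+ monocytes and at 47.4, 34.8, 32.2 and 35.8 CPM in T cells. The log2 fold change was 1.37 (edgeR, adjusted p = 2.61e-11). The lower genes differed little: NDUFA6, an accessory subunit of the complex I matrix arm, by -0.31 on the log2 scale (edgeR, adjusted p = 0.0265) and COX7C by -0.29 (edgeR, adjusted p = 0.0318). NDUFA6 lost its call without the Pre-IS library, without the 8 wpt library or without the filter on low counts, and COX7C without the Post-IS library. The most abundant complex V genes did not pass the test, ATP5F1E with a log2 fold change of 0.15 (edgeR, adjusted p = 0.269) and ATP5MC2 with 0.04 (edgeR, adjusted p = 0.797).

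MS4A7+ monocytes, the nonclassical kind that patrol vessel walls, carried less than CD14+ monocytes for most of the genes. Of the 66 tested, 48 were lower (17.2% of all genes), 0 were higher (11.2% of all genes) and 18 did not pass the test. At an unadjusted p under 0.05, 1 gene was higher by edgeR. At the adjusted threshold DESeq2 called 0 higher and 44 lower. The lower genes were 21 of 29 in complex I, 3 of 4 in complex II, 4 of 6 in complex III, 8 of 11 in complex IV and 12 of 16 in complex V. The median log2 fold change was -0.66, against -0.06 over all genes. This contrast depended on scaling: on plain class totals 25 were lower and 5 higher, the members' median was -0.27 and the median of all genes was 0.33. All 25 were also lower with the composition factors (TMM) of the test above. Without the 4 wpt library 31 were lower and 1 was higher. The 17.2% and 11.2% of all genes are those of the test above and do not apply to these other settings.

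COX7A1 had the largest difference here too. It was at 30.0, 21.8, 27.3 and 20.6 CPM in MS4A7+ monocytes, from 3, 3, 13 and 3 UMIs, below every CD14+ value, with a log2 fold change of -2.09 (edgeR, adjusted p = 1.08e-08). ATP5MC2 was at 319.9, 326, 363 and 501 CPM in MS4A7+ monocytes and at 898, 733, 991 and 882 CPM in CD14+ monocytes. Its groups did not overlap, and the log2 fold change was -1.63 (edgeR, adjusted p = 1.66e-12). NDUFS8, an iron-sulfur core subunit of complex I, had a log2 fold change of -1.19 (edgeR, adjusted p = 1.36e-07). NDUFB2 and NDUFB11, accessory subunits of the membrane arm, were lower by similar amounts, with log2 fold changes of -1.13 and -1.09 (edgeR, adjusted p = 2.38e-08 and 7.27e-08). ATP5IF1, which blocks ATP hydrolysis by the synthase, was at 269.9, 160, 143 and 281.5 CPM in MS4A7+ monocytes and at 133, 116, 122 and 157 CPM in CD14+ monocytes. It did not pass the test, with a log2 fold change of 0.14 (edgeR, adjusted p = 0.598).

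**Figure D2:**
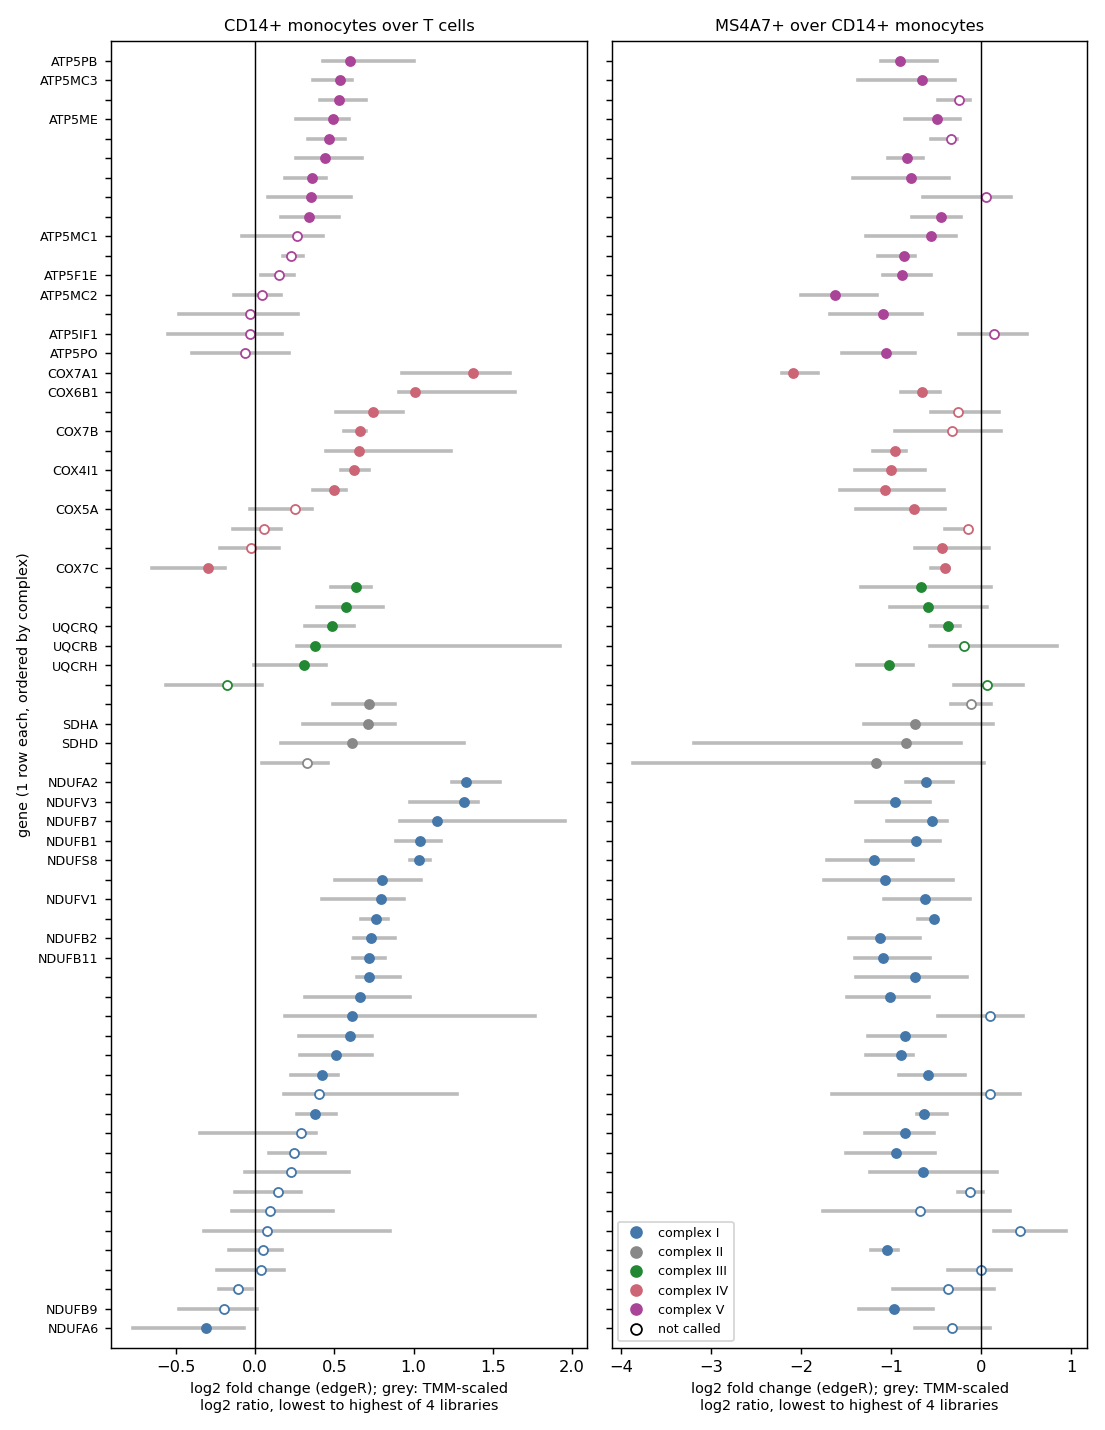
Log2 fold change (x axis, edgeR) of the 66 tested genes (y axis, 1 row each, by complex in colour, with some of the genes described in the text labelled) for CD14+ monocytes over T cells on the left and MS4A7+ over CD14+ monocytes on the right; filled points passed an adjusted p of 0.05, and grey bars span the lowest to the highest TMM-scaled log2 ratio of the 4 libraries. On the left 41 genes are called higher and 2 lower, and on the right 48 are called lower.

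NK cells differed from T cells in few of the genes. Of the 66, 3 were higher (10.2% of all genes), 3 lower (10.7% of all genes) and 60 did not pass the test, with a median log2 fold change of -0.01. COX7A1 was at 91.7, 70.5 and 92.0 CPM in NK cells of Pre-IS, 4 wpt and 8 wpt, above the 47.4, 32.2 and 35.8 CPM of T cells, with a log2 fold change of 1.09 (edgeR, adjusted p = 1.32e-07). It kept its call under all 8 alternatives. NDUFV1, the core subunit of complex I that holds the NADH site, was also higher, with a log2 fold change of 0.37 (edgeR, adjusted p = 0.0478). The lower ones were SDHA, the subunit that oxidises succinate, with -0.48, COX5A, a structural subunit of complex IV, with -0.44, and ATP5MC2 with -0.37 (edgeR, adjusted p = 0.0373, 0.0145 and 0.0465). The calls of NDUFV1, SDHA, COX5A and ATP5MC2 were each lost in at least 3 of 8 alternatives. At the adjusted threshold 7 genes were higher and 0 lower on plain class totals, and 3 and 3 by DESeq2. Without the Pre-IS library 1 was higher and 0 lower. At an unadjusted p under 0.05, a looser threshold, the edgeR test above gave 7 higher and 7 lower, and no share of all genes is given for it. Without the 4 wpt library 1 was higher and 1 lower. Without the 8 wpt library 3 were called, of which 1 was lower and the others higher.

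The B lineage had 15 genes lower than T cells (16.1% of all genes) and 3 higher (16.7% of all genes), of 66 tested. In this fit the count of lower genes was above the share of all genes and the count of higher genes below it. Whether this holds under the other settings below was not tested, as no shares of all genes are given for them. SDHA was at 106, 129 and 124 CPM in the B lineage of Pre-IS, 4 wpt and 8 wpt and at 56.3, 58.7 and 64.4 CPM in T cells. The log2 fold change was 0.86 (edgeR, adjusted p = 1.06e-05). COX7A1 followed with 0.78 and ATP5PB, the peripheral stalk subunit b, with 0.38 (edgeR, adjusted p = 0.000275 and 0.0223). The 5 lower genes with the largest change were NDUFB9 (-0.69), UQCRQ (-0.56), ATP5F1E (-0.52), ATP5PO (-0.52) and COX7C (-0.47), with edgeR adjusted p from 5.27e-05 to 0.00413. NDUFB9 is a complex I membrane arm subunit, and ATP5PO links the stalk of the synthase to its catalytic head. The lower count moved to 8, 7 and 8 without the Pre-IS, 8 wpt or 4 wpt library, and to 7 with 5 higher on plain totals. ATP5PB lost its call without the Pre-IS, 4 wpt or 8 wpt library, and COX7C without the 4 wpt library.

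Other mitochondrial and metabolic gene groups were set beside the nuclear subunits. Of 11 mitochondrially encoded subunits tested, 11 were higher in CD14+ monocytes than in T cells (30% of all genes). In the B lineage 7 were higher than in T cells (16.7% of all genes), and 5 were higher in MS4A7+ than in CD14+ monocytes (11.2% of all genes). In the last contrast 48 nuclear subunits were lower. Glycolysis genes had 9 of 12 higher and 2 lower in CD14+ monocytes over T cells, and 9 of 12 lower in MS4A7+ over CD14+ monocytes. Of 35 assembly factors, which help build the complexes, 9 were higher and 9 lower in CD14+ monocytes over T cells, near the 30% and 27.8% of all genes. In MS4A7+ over CD14+ monocytes 0 were higher and 7 lower, where all genes had 11.2% and 17.2%. Of 66 mitochondrial ribosomal protein genes, 17 were higher and 17 lower in CD14+ monocytes over T cells, with a median log2 fold change of -0.05. In MS4A7+ over CD14+ monocytes 2 of them were higher and 25 lower, with a median of -0.56 beside the -0.66 of the nuclear subunits. Citric acid cycle genes gave 5 higher and 3 lower of 17 in CD14+ monocytes over T cells and 1 and 4 in MS4A7+ over CD14+ monocytes. Regulators of mitochondrial genes gave 2 higher and 3 lower of 11 in the first contrast and 1 and 1 in the second. For each of these groups, the shares over all genes were 30% higher and 27.8% lower in the first contrast. In the second they were 11.2% and 17.2%.

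Between libraries no test was possible. For each gene the ratio of CPM has an exact conditional binomial 95% interval that covers counting error only. A gene counted as measured with at least 20 UMIs over both libraries, and as higher or lower from a 1.5-fold difference. The summed level moved little on plain class totals. Its ratio to Pre-IS ranged from 0.853 (interval 0.810 to 0.898) in MS4A7+ monocytes at 4 wpt to 1.12 (1.06 to 1.19) in the same cells at 8 wpt, and it was 1.05 (1.03 to 1.06) in T cells at 8 wpt. The MS4A7+ ratios moved with TMM scaling and with thinned cells, as given in the last section.

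Between Post-IS and Pre-IS the nuclear subunits held their summed share in T cells while the mitochondrially encoded ones did not. The sum of the nuclear genes had a ratio of 1.00 (0.961 to 1.04) in T cells, 1.03 (1.00 to 1.06) in CD14+ monocytes and 0.918 (0.863 to 0.976) in MS4A7+ monocytes. The mitochondrially encoded subunits had ratios of 1.77 (1.67 to 1.88), 1.57 (1.51 to 1.63) and 1.53 (1.44 to 1.63) in the same order. Their share of T cell UMIs was 0.491%, 0.869%, 0.768% and 0.600%. Of 66 nuclear genes measured in T cells, 0 were higher (14.4% of all genes) and 9 lower (28.4% of all genes). In Post-IS T cells 34 members had fewer than 20 UMIs, so some of these ratios rest on few UMIs. In CD14+ monocytes 0 were higher (16.6%) and 1 lower (13%), and in MS4A7+ monocytes 1 of 53 was higher (18.4%) and 10 lower (12.9%). No gene passed the naming rule in this comparison, which asks that the interval bound nearest to 1 lies beyond 1.5-fold. The members had more UMIs than most genes, with a median of 227.5 over both T cell libraries against 56 for all genes, and higher counts give fewer large ratios. With at least 100 UMIs the counts past 1.5-fold in either direction were 5 of 54 members in T cells, against 25.3% of all genes, 0 of 49 in CD14+ monocytes (16.4%) and 0 of 10 in MS4A7+ monocytes (12.5%). This minimum did not level the UMIs of members and all genes. Their medians were 272.5 and 181 in T cells, 271 and 197 in CD14+ monocytes, and 164.5 and 203.5 in MS4A7+ monocytes. Of 53 members measured in all 3 classes, 0 were 1.5-fold higher in each (2.05% of all genes) and 0 lower (0.808%).

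At 4 wpt against Pre-IS most of the genes again lay within 1.5-fold. In T cells 3 were higher (13.3% of all genes) and 1 lower (7.15%), in NK cells 2 higher (17.5%) and 1 lower (9.31%), and in the B lineage 2 higher (16.9%) and 3 lower (11.9%). In CD14+ monocytes 2 were higher (13.2%) and 2 lower (12.4%). MS4A7+ monocytes had 3 of 62 higher (22.6%) and 11 lower (14.3%). The lower genes were 7 of 27 measured in complex I, 1 of 3 in complex II, 0 of 6 in complex III, 0 of 10 in complex IV and 3 of 16 in complex V. On plain class totals the summed ratios there were 0.789 (0.715 to 0.872) for complex I, 0.799 (0.534 to 1.23) for complex II and 0.818 (0.752 to 0.891) for complex V. Complex III had 1.04 (0.844 to 1.29) and complex IV 0.928 (0.842 to 1.02), and the intervals of complexes II, III and IV held 1. With at least 100 UMIs, 4 of 66 members in T cells lay past 1.5-fold in either direction (11.9% of all genes), 3 of 57 in NK cells (13.4%), 4 of 54 in the B lineage (16.5%) and 3 of 61 in CD14+ monocytes (12.8%). MS4A7+ monocytes had 7 of 34 (17.6%), a share near that of all genes. At this minimum the median UMIs of members and all genes were still 697 and 229 in T cells. In MS4A7+ monocytes they were 173 and 184.

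At 8 wpt against Pre-IS 1 gene was higher in T cells (9.08% of all genes) and 0 lower (5.52%). NK cells had 1 higher (15.4%) and 1 lower (6.89%), the B lineage 3 higher (9.75%) and 0 lower (10.2%), and CD14+ monocytes 2 higher (11.8%) and 1 lower (9.45%). In MS4A7+ monocytes 8 of 57 were higher (13%) and 2 lower (16.8%), from libraries of 75 and 65 cells. With at least 100 UMIs, 1 of 65 members in T cells lay past 1.5-fold in either direction (5.05% of all genes), 1 of 59 in NK cells (6.82%), 2 of 53 in the B lineage (6.24%), 2 of 61 in CD14+ monocytes (5.98%) and 1 of 12 in MS4A7+ monocytes (16.5%). At 4 wpt against Post-IS, T cells had 8 higher (32.7%) and 2 lower (14.4%), CD14+ monocytes 3 higher (14.1%) and 2 lower (15.4%), and MS4A7+ monocytes 7 of 64 higher (19.2%) and 8 lower (15%). With at least 100 UMIs the counts in either direction were 9 of 65 (34.4%), 5 of 60 (18.6%) and 3 of 34 (17.8%). Members still had more UMIs in T cells at this minimum. Their median was 580 against 215 for all genes at 8 wpt over Pre-IS, and 521 against 210 at 4 wpt over Post-IS. In MS4A7+ monocytes it was 185 in both comparisons, against 200.5 and 189. Some of the T cell ratios again rest on few UMIs in Post-IS. These comparisons share libraries, so their counts are not independent.

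**Figure D3:**
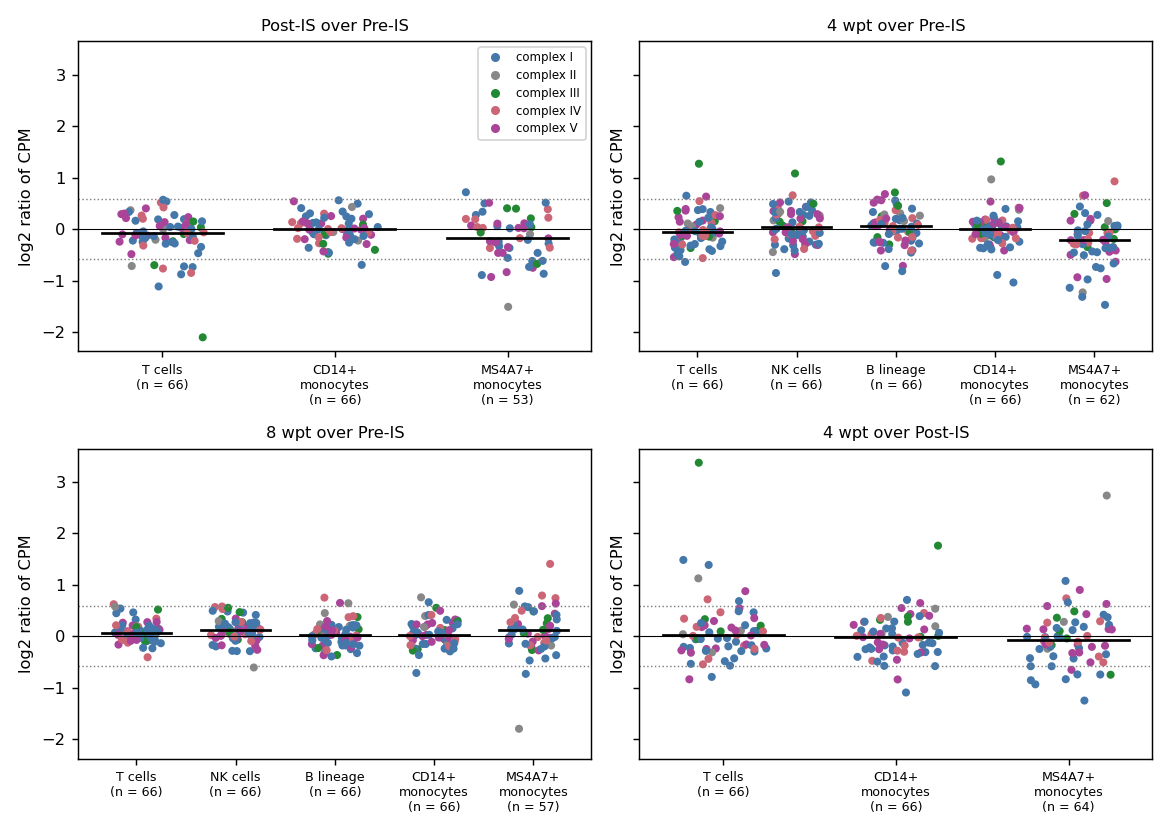
Log2 ratio of CPM (y axis) of each measured gene for 4 comparisons between libraries (panels) and the cell classes with at least 50 cells in both (x axis, with the number of genes); black bars are medians and dotted lines mark 1.5-fold. Most points lie between the dotted lines, and scatter is wide in MS4A7+ monocytes. In the panels with Post-IS, T cells also hold points far out, such as UQCRB at -2.10 (Post-IS over Pre-IS) and 3.37 (4 wpt over Post-IS).

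Among libraries with at least 50 cells of the class, NDUFB1 and ATP5ME were lowest and UQCRB was highest at 4 wpt in every class. The share of all genes that were lowest or highest at 4 wpt in every class is not given. The pattern was partly shared by ATP5MPL, another complex V gene. Its ratio of 4 wpt to Pre-IS was below 1 in all 5 classes, from 0.741 in MS4A7+ monocytes to 0.842 in T cells. NDUFB1 was the only 1 of the 62 members measured in all 5 classes that was at least 1.5-fold lower at 4 wpt than at Pre-IS in every class (0.156% of all genes). In T cells it was at 441.5, 487, 284 and 489 CPM, and in CD14+ monocytes at 894, 1028, 482 and 806 CPM. MS4A7+ monocytes had 729.7, 580.2, 432 and 748 CPM. In NK cells of Pre-IS, 4 wpt and 8 wpt it was at 579.8, 321 and 516 CPM, and in the B lineage at 411, 232 and 327 CPM. The 4 wpt value was the lowest in each of the 5 classes, with ratios to Pre-IS from 0.540 (0.477 to 0.610) in CD14+ monocytes to 0.643 (0.579 to 0.714) in T cells. At 8 wpt the ratio to Pre-IS was 1.11 (1.00 to 1.23) in T cells, 0.902 (0.806 to 1.01) in CD14+ monocytes and 0.797 (0.661 to 0.959) in the B lineage.

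ATP5ME, subunit e of the ATP synthase, which helps the enzyme form dimers, was also lowest at 4 wpt in each class. It was at 475, 577, 325 and 499 CPM in T cells, at 529, 769, 430.4 and 637 CPM in CD14+ monocytes, and at 579.7, 587, 375 and 687 CPM in MS4A7+ monocytes. The ratio of 4 wpt to Post-IS was 0.564 (0.450 to 0.714), 0.560 (0.487 to 0.644) and 0.639 (0.489 to 0.842) in these classes. It was at least 1.5-fold lower in all 3, as were 1.42% of all genes measured in the 3, while 0 members were 1.5-fold higher in all 3 (1.91%). Against Pre-IS it was lower in 5 of 5 classes, past 1.5-fold in MS4A7+ monocytes and the B lineage.

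UQCRB, a small complex III subunit near the ubiquinone site, went the other way and was highest at 4 wpt in all 5 classes, among libraries with at least 50 cells. In T cells it was at 44.4, 6.96, 108 and 64.0 CPM, from 60, 1, 342 and 143 UMIs, so 4 wpt stood 2.43-fold (1.84 to 3.25) above Pre-IS. The T cell ratio of 4 wpt to Post-IS, 15.5, rests on 1 UMI in Post-IS and has an interval of 2.76 to 614. In CD14+ monocytes it was at 49.3, 35.7, 124 and 73.1 CPM, or 2.52-fold (1.66 to 3.96) above Pre-IS and 3.48-fold (2.07 to 6.25) above Post-IS. NK cells had 55.0, 118 and 82.0 CPM in Pre-IS, 4 wpt and 8 wpt. In MS4A7+ monocytes, with 9, 12, 55 and 11 UMIs, the ratio of 4 wpt to Pre-IS was 1.28 (0.629 to 2.95), within counting error of 1. The level was at least 1.5-fold higher in 4 of 5 classes, while 0 of the 62 members were so in all 5 (0.753% of all genes). The 4 wpt library was also deeper per cell than Pre-IS in all 5 classes. Median depths were 3626 against 1526 UMIs in T cells and 1945 against 1111 UMIs in MS4A7+ monocytes. Whether depth bears on NDUFB1, ATP5ME and UQCRB was not tested.

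**Figure D4:**
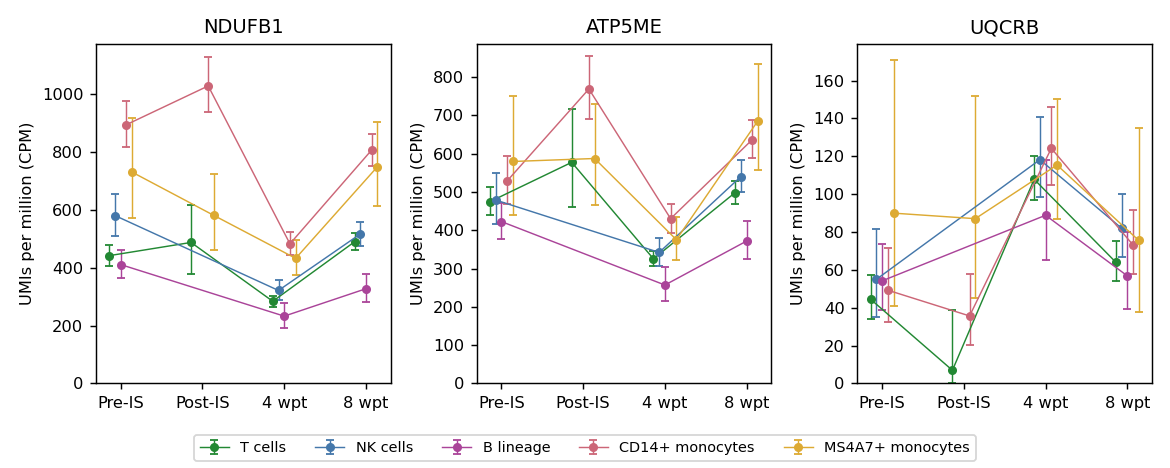
Level in CPM (y axis, from 0) of NDUFB1, ATP5ME and UQCRB in each library (x axis) for 5 cell classes (colours), with exact Poisson 95% intervals for counting error; NK cells and the B lineage have no Post-IS point, as they held 9 and 13 cells there. NDUFB1 and ATP5ME are lowest and UQCRB is highest at 4 wpt in each class.

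COX7B, a small complex IV subunit, and SDHD, a membrane anchor of complex II, were above Pre-IS in 5 of 5 classes at both times after transplantation. COX7B was at 154, 174, 225 and 238 CPM in T cells and at 169.9, 196, 331 and 460.0 CPM in MS4A7+ monocytes. At 8 wpt it was at least 1.5-fold higher in 4 of 5 classes, with ratios of 1.54 (1.31 to 1.82) in T cells and 2.71 (1.57 to 4.92) in MS4A7+ monocytes. SDHD was at 52.9, 71.3, 105 and 90.4 CPM in CD14+ monocytes, a ratio to Pre-IS of 1.98 (1.31 to 3.08) at 4 wpt and 1.71 (1.12 to 2.69) at 8 wpt. Its 4 wpt to Post-IS ratio of 9.83 (1.65 to 399.7) in MS4A7+ monocytes rests on 1 UMI in Post-IS. In NK cells and MS4A7+ monocytes at both times, and in the B lineage at 4 wpt, the interval of its ratio to Pre-IS held 1. Of the 62 members measured in all 5 classes at 4 wpt, 10 were above Pre-IS in each class (13.7% of all genes) and 13 below (11.6%). At 8 wpt 8 of 57 were above (10.5%) and 0 below (6.41%). At 8 wpt the share of all genes at least 1.5-fold higher in all 5 classes was 0%, and no member was.

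Paralogs with known tissue forms gave a further view. Complex IV subunit 6A has a ubiquitous form, COX6A1, and a muscle form, COX6A2. COX6A2 had 24 UMIs in all, 21 of them in NK cells, which hold 16.3% of all UMIs. It was seen in 3 of 257, 6 of 270 and 10 of 659 NK cells of Pre-IS, 4 wpt and 8 wpt, with median depths of 1614, 3943 and 1758 UMIs per cell. In T cells, with median depths of 1526, 3626 and 1810 in the same libraries, 1 of 3019 cells had a UMI over all 4 libraries. Over all libraries the level was 7.78 CPM (4.82 to 11.9) in NK cells and 0.145 CPM (0.00367 to 0.808) in T cells. In CD14+ monocytes 0 UMIs were found, which allows up to 1.15 CPM by the exact interval.

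COX6B2, the testis form of subunit 6B, also had 24 UMIs, of which 10 were in CD14+ and 10 in MS4A7+ monocytes. The MS4A7+ level was 11.6 CPM (5.57 to 21.4) and the CD14+ level 3.11 CPM (1.49 to 5.73), against 0.290 CPM (0.0351 to 1.05) in T cells. The ubiquitous COX6B1 had 4816 UMIs over all cells. COX7A2L had 32 UMIs spread over the classes, at 1.48 to 3.49 CPM in the 5 large classes, and COX7A2, the common form of subunit 7A, was at 387 CPM over all cells against 58.3 CPM for COX7A1. The 3 genes for ATP synthase subunit c, whose mature proteins are the same, were unequal: ATP5MC2 had 14806 UMIs, ATP5MC3 4743 and ATP5MC1 1309.

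The proliferating NK/T cells had the highest shares, and this comparison with T cells of the same library was added after the data were seen. It is a description, since the class held 41 cells at 4 wpt and 30 at 8 wpt. The summed level was 1.42-fold (1.38 to 1.45) that of T cells at 4 wpt and 1.40-fold (1.36 to 1.45) at 8 wpt. Of 66 measured genes, 45 were at least 1.5-fold higher at 4 wpt (24.4% of all genes) and 1 lower (25.3%). At 8 wpt 35 were higher (26.6%) and 1 lower (27.6%). In both libraries 31 were at least 1.5-fold higher (13.3% of all genes). The proliferating cells were deeper, with medians of 6973 and 3484 UMIs against 3626 and 1810 in T cells. With cells thinned to 1000 UMIs their share was 2.42% at 4 wpt and 2.59% at 8 wpt, against 1.75% and 1.93% in T cells.

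The difference was not the same in every complex or gene. Complex I was 1.71-fold (1.63 to 1.79) and 1.54-fold (1.44 to 1.64) higher in sum, with 24 and 17 of its 29 genes at least 1.5-fold higher. Complex V was 1.31-fold (1.26 to 1.36) and 1.36-fold (1.29 to 1.43) higher, and complex IV 1.35-fold (1.29 to 1.41) and 1.38-fold (1.29 to 1.47). Complex III was 1.43-fold (1.30 to 1.56) and 1.36-fold (1.18 to 1.56) higher, with 4 and 1 of its 6 genes past 1.5-fold. Complex II had ratios of 1.61 (1.31 to 1.95) and 1.35 (0.978 to 1.82), the second within counting error of 1. Within complex V, ATP5MC3 was at 629 and 769 CPM in proliferating cells and at 240.0 and 264 CPM in T cells, and ATP5MC1 at 173 and 214 CPM against 65.0 and 81.0 CPM. Their ratios were 2.62 and 2.92, and 2.66 and 2.64. The third subunit c gene, ATP5MC2, was at 1022 and 1004 CPM against 1107 and 887 CPM, a ratio of 0.924 (0.822 to 1.04) and 1.13 (0.948 to 1.34).

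In complex IV, COX6B1 was 2.41-fold (2.03 to 2.86) and 2.50-fold (1.96 to 3.17) higher in proliferating cells, and COX7B 2.31-fold and 2.07-fold. COX4I1, at 1098 and 1275 CPM, had ratios of 0.932 (0.833 to 1.04) and 1.03 (0.880 to 1.20). COX7C was the only member with its interval below 1 in both libraries, with ratios of 0.734 (0.653 to 0.823) and 0.740 (0.613 to 0.885). Glycolysis genes were 1.85-fold (1.77 to 1.94) and 1.96-fold (1.83 to 2.09) higher in sum, and mitochondrial ribosomal protein genes 1.44-fold (1.38 to 1.52) and 1.41-fold (1.31 to 1.51). The T cell markers of the class summed to 2435 and 2307 CPM and its NK markers to 6676 and 5740 CPM. These are sums over all its cells, and whether single cells carried both sets was not tested. NK cells had a share of 1.85% and 1.96% in the same libraries, also below the proliferating cells. Ratios of single genes are to T cells only, and NK cells differed from T cells in some of these genes. COX6B1 was at 287 and 307 CPM in NK cells and at 223 and 233 CPM in T cells. COX7C was at 1234 and 1031 CPM in NK cells and at 1367 and 1203 CPM in T cells. How far this bears on the ratios was not tested.

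**Figure D5:**
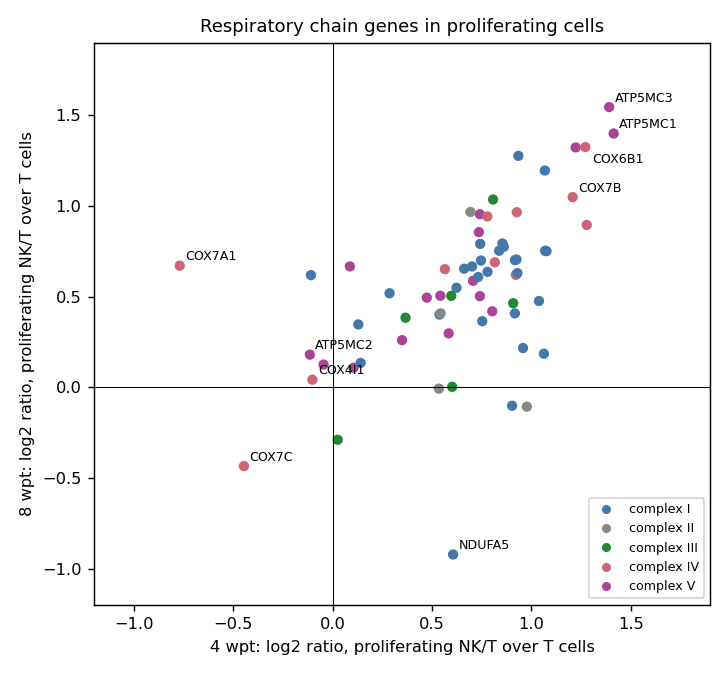
Log2 ratio of proliferating NK/T cells over T cells at 4 wpt (x axis) and at 8 wpt (y axis) for the 66 measured genes, coloured by complex. Most genes lie in the upper right, ATP5MC1, ATP5MC3 and COX6B1 farthest out, while COX7C lies below 0 in both libraries.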

How the data were processed

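Single-cell RNA sequencing (10x Genomics 5′ chemistry) was made on 4 libraries. For each, the authors deposited raw UMI counts per gene and cell and a table of cell labels. Cell Ranger 3.1.0 is listed in the submitters' processing notes, as are the genome build Mmul_10 and Seurat 3.2.3. How cells and genes were filtered and doublets treated is not given in the sources used here, and no doublet caller was run. Total depth was 791030 to 6910432 UMIs per library.

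UMIs were summed per cell class and library, and levels are UMIs per 1000000 UMIs of the class (CPM) with exact Poisson 95% intervals. Library ratios have exact conditional binomial intervals, and medians use log2 ratios with 0.5 UMIs added. All cover counting error only. Class contrasts used edgeR 4.0.16 with TMM factors and filterByExpr, threshold 0.05. These scripts were tested on simulated data. DESeq2 1.42.0 was an alternative. Python 3.11.15 and scipy 1.17.1 were used for the rest.

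Named between libraries were up to 3 higher and 3 lower genes per class whose interval bound lay beyond 1.5-fold. Between classes up to 5 called genes per direction with the same sign in each library were named, plus the 2 most abundant genes of each complex and the paralog sets. Genes that differed in every class were added after their values were seen. Results of 1 member are left out of the text. The members and lists were chosen with earlier results of these data known. Of 2559 rows with an identifier, 440 were named from a RefSeq table of another macaque assembly, used for names only. Other settings were other totals and scalings, cells weighted equally or thinned to 1000 UMIs, minimums of 1, 50 and 100 UMIs (the last chosen after seeing the data), an offset of 2 UMIs, no low-count filter, no library term, and each library left out.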

Additional observations from a re-analysis of the deposited data

Results flagged for a closer look

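Data outside the chosen rows held signal for further subunits. Some rows of the tables have no symbol, only a gene identifier. Of these, 1 is named NDUFA11, a complex I membrane arm subunit, by the reference table, and 1 is named COX6A1, the ubiquitous form of complex IV subunit 6A. They were not members, as the rule reads symbols. NDUFA11 was at 272 CPM over all cells in Pre-IS, 226 in Post-IS, 242 at 4 wpt and 287 at 8 wpt. COX6A1 was at 315 CPM in Pre-IS, 350.2 in Post-IS, 329 at 4 wpt and 339 at 8 wpt.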

How the results depend on the processing

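No paired analysis was possible because each group is 1 library and the labels carry no replicate numbers, which applies to comparisons between libraries. Class contrasts were fitted within libraries, with library as a term. No named gene reversed its direction between classes under any of the 8 alternatives. Summed ratios with TMM scaling were 1.00 for Post-IS over Pre-IS in CD14+ monocytes. For 4 wpt over Pre-IS they were 0.916 in the B lineage, 1.02 in CD14+ and 0.946 in MS4A7+ monocytes. For 8 wpt over Pre-IS they were 1.03 in T cells, 1.03 in NK cells, 1.04 in CD14+ and 1.31 in MS4A7+ monocytes, and for 4 wpt over Post-IS 1.01 in CD14+ and 1.00 in MS4A7+ monocytes. With totals that leave out ribosomal, mitochondrial, hemoglobin and immunoglobulin genes, CD14+ monocytes gave 1.00 for Post-IS over Pre-IS and 0.968 for 4 wpt over Post-IS. T cells gave 0.963, 1.03 and 0.936 for 4 wpt over Pre-IS, 8 wpt over Pre-IS and 4 wpt over Post-IS. With cells weighted equally the ratios were 0.856 in MS4A7+ monocytes for Post-IS over Pre-IS, 0.954, 0.912 and 0.810 in T cells, the B lineage and MS4A7+ monocytes for 4 wpt over Pre-IS, and 0.988 in the B lineage for 8 wpt over Pre-IS. Thinned cells gave 0.960, 0.994 and 0.781 in T cells, CD14+ and MS4A7+ monocytes for 4 wpt over Pre-IS, 1.04 in MS4A7+ monocytes for 8 wpt over Pre-IS, and 0.977 and 0.807 in CD14+ and MS4A7+ monocytes for 4 wpt over Post-IS. The cause was not tested.

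With an offset of 2 UMIs the median log2 ratio moved from -0.08 to 0.055 for Post-IS over Pre-IS in T cells, from 0.02 to -0.13 for 4 wpt over Post-IS in T cells, from -0.06 to -0.15 there in MS4A7+ monocytes, and from 0.13 to 0.086 for 8 wpt over Pre-IS in NK cells. With a minimum of 50 UMIs it moved from -0.18 to -0.081 for Post-IS over Pre-IS in MS4A7+ monocytes. Leaving out 1 library gave, for CD14+ monocytes over T cells, 34 to 40 higher and 1 to 3 lower genes. It gave 0 to 1 higher and 31 to 48 lower for MS4A7+ over CD14+ monocytes, 1 to 3 higher and 0 to 3 lower for NK over T cells, and 2 to 3 higher and 7 to 16 lower for the B lineage over T cells. On plain totals CD14+ monocytes over T cells had 4 lower genes, and without the low-count filter 1. MS4A7+ over CD14+ monocytes had 5 higher and 25 lower on plain totals, NK over T cells 7 and 0, and the B lineage over T cells 5 and 7. Without the library term NK over T cells had 1 higher and 0 lower, and the B lineage 7 lower. Depth limits MS4A7+ monocytes most, with a median of 52 UMIs per measured gene for Post-IS over Pre-IS.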
